A study of Rattus norvegicus with 4 samples.

Results

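Resting heart muscle cells given an siRNA against Chaer, a long noncoding RNA, were compared with cells given a negative control siRNA, which shows what differed before any hypertrophic stimulus. The cells were neonatal rat ventricular myocytes, primary contracting cells isolated from the hearts of 2-day-old Sprague Dawley rats. They were transfected for 6 h with siChaer or siNeg and RNA was collected after 48 h. The comparison takes 1 library of each siRNA without phenylephrine. The other 2 of the 4 libraries received the same siRNAs and 50 µM phenylephrine, and serve here as a second pair of libraries for the same siRNA contrast. The treatment protocol of every sample mentions phenylephrine, and libraries are taken as resting because their titles and source names lack it. The labels name no genetic change, and they do not say whether the cultures were separate, from pooled hearts or free of other heart cells.

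Each feature is a gene model with a read count and an RPKM value, which is the read number scaled for the length of the model and the depth of the library. Features were included when their RPKM averaged at least 1 over the control siRNA and the Chaer siRNA library, which held for 12261 of the 26406 listed (46.4%). These held 99.7% of the listed reads in the control siRNA library and 99.8% in the Chaer siRNA library, which held 35404497 and 38768299 listed reads. Of the 14145 others, 8399 had no read in either library and 5746 had reads but a lower average. The nearest features inside the limit averaged 1.0002 and 1.0004 RPKM with log2 ratios of -0.03 and -0.20, and the nearest outside 0.9995 and 0.99998 RPKM with log2 ratios of -0.35 and -0.14. Of those included, 11963 reached 1 RPKM in both libraries, 91 only with Chaer siRNA and 207 only with control siRNA, and none had 0 reads in either library. All but 1 of the listed features, H19, carry an Ensembl identifier without a symbol. Features are therefore given by identifier, and neither the level of Chaer nor markers of myocytes and other heart cells were analysed here.

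Chaer is a heart-enriched long noncoding RNA known to bind Polycomb repressive complex 2, the enzyme complex that places the silencing mark H3K27me3, and to be required for the growth response of cardiac myocytes. Long noncoding RNAs of this kind act on chromatin, so that lowering one can alter the transcription of many genes. H19, the other long noncoding RNA with a name here, is transcribed from the maternal chromosome at the imprinted locus it shares with Igf2. It is abundant in fetal tissues and is the host transcript of miR-675.

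Most features had similar levels under both siRNAs, and small numbers were at least 2-fold higher or lower with Chaer siRNA. Ratios are given as the log2 of (RPKM + 1) with Chaer siRNA over (RPKM + 1) with control siRNA, which understates the difference of weakly expressed features. At least 2-fold higher were 125 features (1.02% of 12261) and at least 2-fold lower 139 (1.13%). With 1 library per group there is no test, and the 95% intervals below cover counting error only. The median log2 ratio of all 12261 features was 0.02, and 90% of them lay between -0.64 and 0.58. Within 1.2-fold lay 7111 features (58.0%), within 1.5-fold 10890 (88.8%) and within 2-fold 11997 (97.8%). Counting intervals excluded an equal level for 66.8% of the features, with a median of 802 for the smaller read count. In 863 of these features the ratio of (RPKM + 1) was nevertheless below 1.1-fold. The intervals are of the read ratio scaled for depth, without the pseudocount, so these measures differ at low levels. When the 20 most abundant features were left out of the scaling, 93 features were at least 2-fold higher and 173 lower, so that the higher ones made up 35.0% of both in place of 47.3%. The larger direction turned with a pseudocount of 5 RPKM (55 higher, 37 lower) and with a mean RPKM of at least 5 (111 higher, 86 lower). In bulk RNA, fewer cells of a type and less RNA per cell cannot be told apart.

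**Figure D1:**
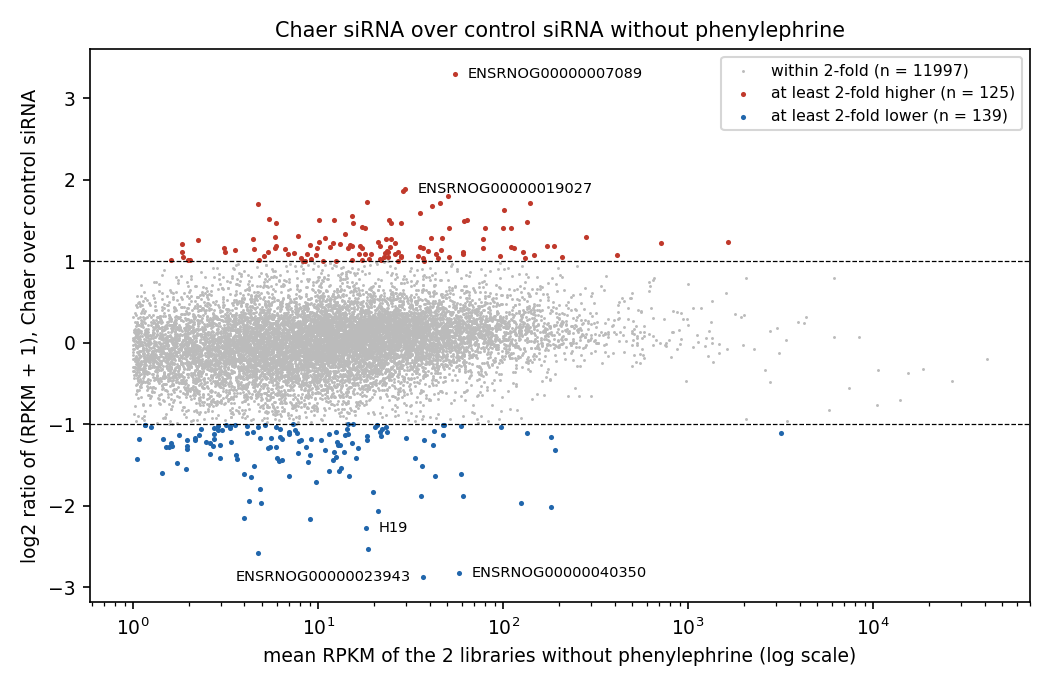
Each point is 1 of 12261 features, with its mean RPKM over both libraries on a log axis and its log2 ratio of (RPKM + 1), Chaer over control siRNA; dashed lines mark 2-fold. The 125 higher and 139 lower features lie over most of the range of levels. Among the 49 features at 1000 RPKM or more, 1 is higher and 1 lower (4.08%, against 2.15% of all features). ENSRNOG00000007089 stands apart at the top with a log2 ratio of 3.29.

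The ends of the ranking differed in shape. A single feature was at least 4-fold higher with Chaer siRNA and 9 were at least 4-fold lower. At 3-fold there were 11 higher and 24 lower features, and between 1.5-fold and 2-fold there were 480 higher and 627 lower. The second highest log2 ratio was 1.88, which is 1.41 below the first, whereas the 5 lowest ran from -2.88 to -2.28.

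H19 was among the most reduced features with Chaer siRNA, the 5th lowest of 12261. It had 2635 reads and 30.6 RPKM (29.5 to 31.8) with control siRNA, and 518 reads and 5.52 RPKM (5.05 to 6.01) with Chaer siRNA. By RPKM it moved from the 2675th to the 8554th highest level among these features. The log2 ratio was -2.28, and the level itself was 5.56 times lower (5.05 to 6.12) with Chaer siRNA. In the pair with phenylephrine, which shares no library with this one, H19 was the 3rd lowest of the same features at -1.91. The libraries with control siRNA thus held the higher H19 level in both pairs, and the counting intervals of the 2 siRNAs did not overlap.

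The gene of miR-675 lies within H19 in the RefSeq annotation of GRCr8, and its mature strands are shown because they are the known processed products of the transcript whose level differed. They are from RefSeq, 5′ to 3′, with the seed (bases 2 to 8) in capitals, and their own level was not analysed here. The seeds of the strands differ, so they form no seed family.
rno-miR-675-5p: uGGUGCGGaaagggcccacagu
rno-miR-675-3p: uGUAUGCCcuaaccgcucagu

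ENSRNOG00000007089 had the highest ratio. Its gene model is 1818 bp long and it had 631 reads and 9.38 RPKM (8.67 to 10.1) with control siRNA, against 7401 reads and 101 RPKM (98.5 to 103) with Chaer siRNA. With phenylephrine it had 7.69 RPKM with control and 81.3 RPKM with Chaer siRNA. Both Chaer siRNA libraries were high and both control siRNA libraries low, and phenylephrine was accompanied by a slightly lower level under either siRNA. It was 10.7-fold higher (9.90 to 11.7) without and 10.6-fold higher (9.64 to 11.6) with phenylephrine.

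ENSRNOG00000019027 followed at a distance. It had 633 reads and 12.04 RPKM (11.1 to 13.0) with control siRNA and 2701 reads and 47.1 RPKM (45.3 to 48.9) with Chaer siRNA, which is 3.91-fold higher (3.58 to 4.27). With phenylephrine the levels were 13.9 RPKM and 56.0 RPKM, 4.03-fold higher (3.71 to 4.37) with Chaer siRNA. The Chaer siRNA libraries were again the 2 high ones, and the intervals of the siRNA ratios in both pairs overlapped.

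ENSRNOG00000023943 had the lowest ratio. It had 4317 reads and 65.6 RPKM (63.7 to 67.6) with control siRNA and 578 reads and 8.04 RPKM (7.40 to 8.73) with Chaer siRNA, which is 8.16 times lower (7.48 to 8.91). With phenylephrine it had 12.4 RPKM with control and 2.34 RPKM with Chaer siRNA, 5.31 times lower (4.49 to 6.31). The resting control siRNA library was the only one of the 4 with a high level, and the lowest level was that with both Chaer siRNA and phenylephrine.

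ENSRNOG00000040350, a gene model of only 84 bp, had the second lowest ratio. It had 318 reads with control siRNA and 46 with Chaer siRNA, or 102 RPKM (91.4 to 114) and 13.6 RPKM (9.93 to 18.1), which is 7.55 times lower (5.53 to 10.5). With phenylephrine it had 171 reads and 53 reads, or 57.6 and 15.5 RPKM, which is 3.73 times lower (2.73 to 5.18). The Chaer siRNA libraries were the 2 low ones, at levels whose counting intervals overlapped.

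**Figure D2:**
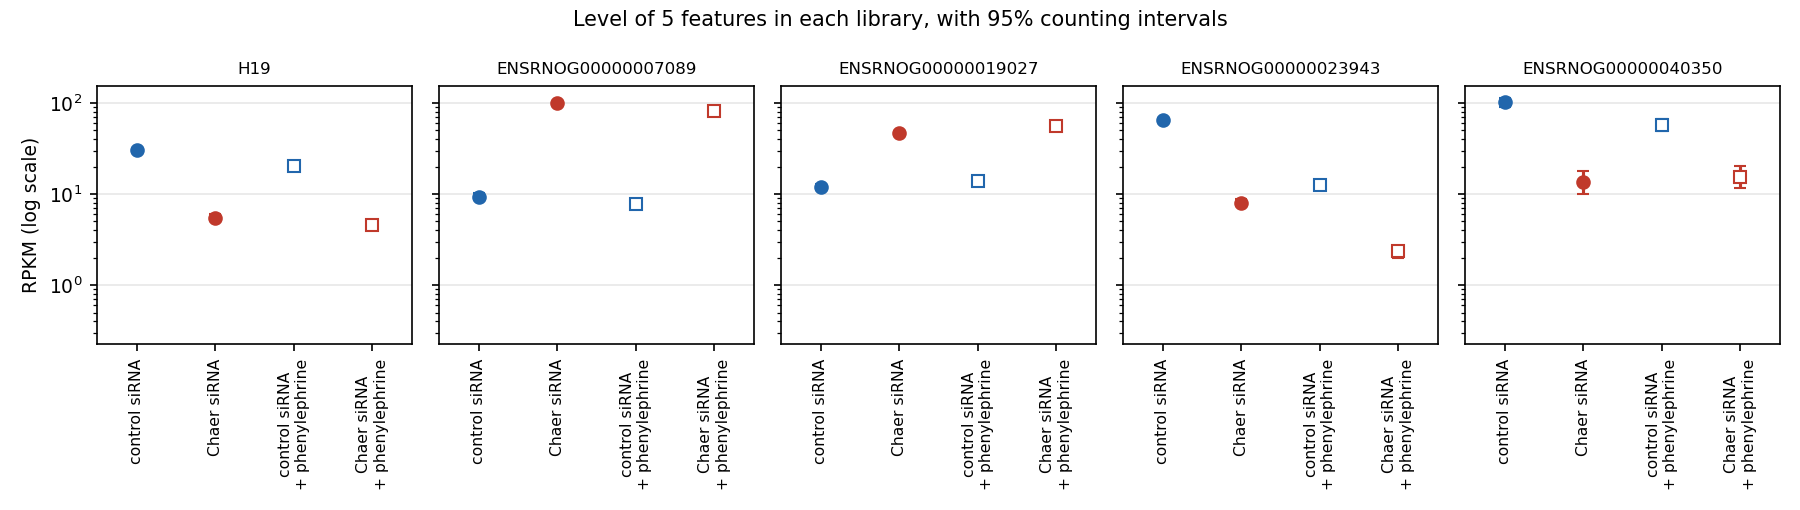
RPKM on a log axis of H19 and the 2 features with the highest and the 2 with the lowest ratio, in each of the 4 libraries; circles are libraries without and squares with phenylephrine, bars are 95% counting intervals and some are smaller than the symbols. In all 5 panels both Chaer siRNA libraries lie on the same side of the control siRNA library of their pair.

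Higher and lower features had similar median levels in the resting control siRNA library, which enters the ratios they were chosen on. There the median was 12.1 RPKM for the 125 higher features, 10.9 RPKM for the 139 lower ones and 11.4 RPKM for all 12261. With Chaer siRNA the medians were 30.4, 4.02 and 11.5 RPKM. In the control siRNA library with phenylephrine, which the choice did not use, they were further apart, at 12.5, 8.46 and 10.7 RPKM. By the mean of both libraries, which contains the difference itself, 14 of the 125 higher and 53 of the 139 lower features lay below 5 RPKM. At 100 RPKM or more lay 16 and 6. Of all 12261 features, 3277 lay below 5 RPKM and 705 at 100 RPKM or more. Counting intervals lay off an equal level for 124 of the 125 and 138 of the 139, against 66.8% of all 12261. The features were chosen on the same counts, so these intervals give no separate support. The higher features held 0.684% of the listed reads with control siRNA and 1.65% with Chaer siRNA, and the lower ones 1.60% and 0.674%.

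The ratios of all features also went with level. With the 12261 features divided by mean RPKM into 5 groups of equal size, the median log2 ratio went from -0.10 in the lowest group (1.00 to 3.74 RPKM) through -0.06, 0.01 and 0.07 to 0.12 in the highest (34.1 RPKM and above). The higher features numbered 10, 17, 22, 33 and 43 in these groups, and the lower ones 40, 34, 27, 17 and 21. The share past 2-fold in either direction stayed near the 2.15% of all features, from 2.00% in the middle group to 2.61% in the highest. In the pair with phenylephrine the same groups had median log2 ratios between -0.06 and -0.01, with no such slope. With level taken from the libraries with phenylephrine instead, which do not enter these ratios, the median log2 ratio without phenylephrine again went from -0.10 in the lowest to 0.12 in the highest group. That pair holds the same siRNA contrast, with a Pearson's r of 0.65 between the ratios of both pairs, so its level is not free of that contrast.

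**Figure D3:**
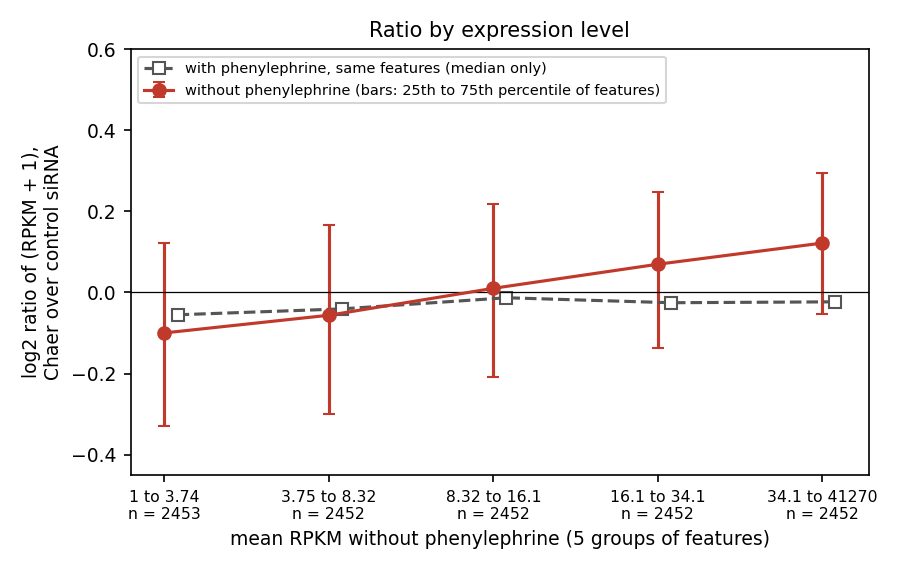
Median log2 ratio of (RPKM + 1), Chaer over control siRNA, in 5 equal groups of the 12261 features by mean RPKM, with bars from the 25th to the 75th percentile for the pair without phenylephrine. Without phenylephrine the median goes from -0.10 to 0.12 over the groups, and with phenylephrine it stays between -0.06 and -0.01.

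The most abundant features went against this trend, and they carried much of what was lower with Chaer siRNA. The 20 features with the most reads, at 968 to 41270 RPKM, held 24.9% of the listed reads with control siRNA and 20.6% with Chaer siRNA. Among them 12 were lower and 8 higher, with a median log2 ratio of -0.26, against 0.02 for all 12261 features. At least 1.2-fold lower were 10 of the 20, and 2591 of all 12261. Past 2-fold were 2.15% of all 12261 features and 1 of these 20, the 14th by number of reads. It was at 4358 RPKM with control and 2013 RPKM with Chaer siRNA, but at 2606 and 2385 RPKM with phenylephrine. The most abundant feature, a model of 1545 bp, went from 44204 to 38336 RPKM, and from 7.14% to 6.17% of the listed reads. With phenylephrine these 20 features held 21.2% with control and 19.99% with Chaer siRNA, a smaller gap. In that pair 15 of the 20 were lower, with a median log2 ratio of -0.11, where 54.2% of all features had a ratio below 1. Of all listed reads, 10.6% was placed differently between the 2 resting libraries. As few as 14 features accounted for 50% of what was lower with Chaer siRNA, whereas 262 features made up 50% of what was higher. With phenylephrine the corresponding numbers were 134 and 157 features. The RPKM of every feature is scaled to the same library total, so the values of features are not independent of each other. With these 20 features left out of the scaling, the median log2 ratio was -0.16 in the lowest and 0.04 in the highest of the 5 groups by level. Beyond this, the part of these abundant features in the slope with level was not tested.

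**Figure D4:**
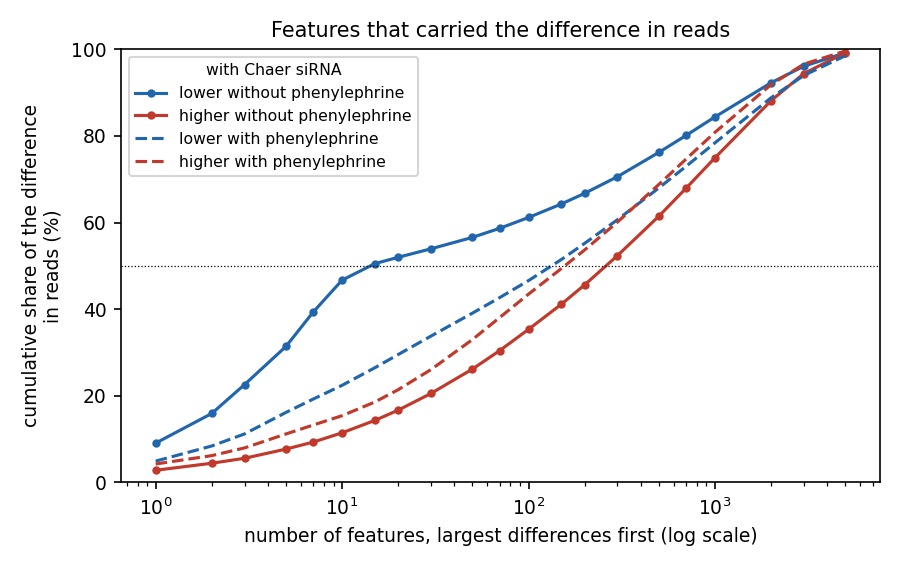
Cumulative share (%) of the reads by which features were lower (blue) or higher (red) with Chaer siRNA, against the number of features on a log axis, starting with the largest differences; solid lines are the pair without and dashed lines the pair with phenylephrine. The solid blue line reaches 50% at 14 features and the solid red line at 262.

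Features past 2-fold in resting cells mostly lay on the same side in the libraries with phenylephrine. Of the 125 higher features, 123 had a ratio above 1 there, against 45.8% of all 12261, and 78 (62.4%) were again at least 2-fold higher, against 0.995%. Of the 139 lower features, 137 had a ratio below 1, against 54.2% of all, and 61 (43.9%) were again at least 2-fold lower, against 0.824%. No feature was 2-fold higher in one pair and 2-fold lower in the other. At shares of 0.824% and 0.995% of all features, sets of 125 and 139 would hold few such features in any case. Read from the other side, 63.9% of the features 2-fold higher with phenylephrine were also 2-fold higher in resting cells, and 60.4% of those 2-fold lower. The pairs share no library, but the labels do not say whether libraries of the same siRNA share a culture.

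In both directions most features had a smaller ratio with phenylephrine. The median log2 ratio of the lower features was -1.22 without and -0.92 with phenylephrine, and 116 of the 139 had the smaller ratio with phenylephrine. For the higher features the medians were 1.17 and 1.15, and 75 of the 125 had the smaller ratio. Both sets were chosen on their ratios without phenylephrine, and the gap between the directions was not tested. The median RPKM of the lower features was 10.9 and 4.02 in resting cells with control and Chaer siRNA, and 8.46 and 3.71 with phenylephrine. By level of the lower features, 16 of 53 below 5 RPKM, 23 of 55 between 5 and 20 RPKM and 22 of 31 above 20 RPKM were again 2-fold lower. Among the higher features these numbers were 8 of 14, 26 of 45 and 44 of 66. Of all 12261 features, 0.824% were 2-fold lower and 0.995% 2-fold higher with phenylephrine. The pseudocount of 1 RPKM makes 2-fold harder to reach at low levels. With 0.1 RPKM, 55.5% of the features then 2-fold higher and 47.3% of those then 2-fold lower were so in both pairs. The part of the pseudocount in the numbers by level was not tested. All 11 features at least 3-fold higher were again at least 2-fold higher, as were 20 of the 24 at least 3-fold lower in their direction. At least 3-fold in both pairs were 10 of the 11 higher and 8 of the 24 lower features. These sets are small and were chosen on the resting ratios, and the share of all features at 3-fold with phenylephrine is not given here.

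**Figure D5:**
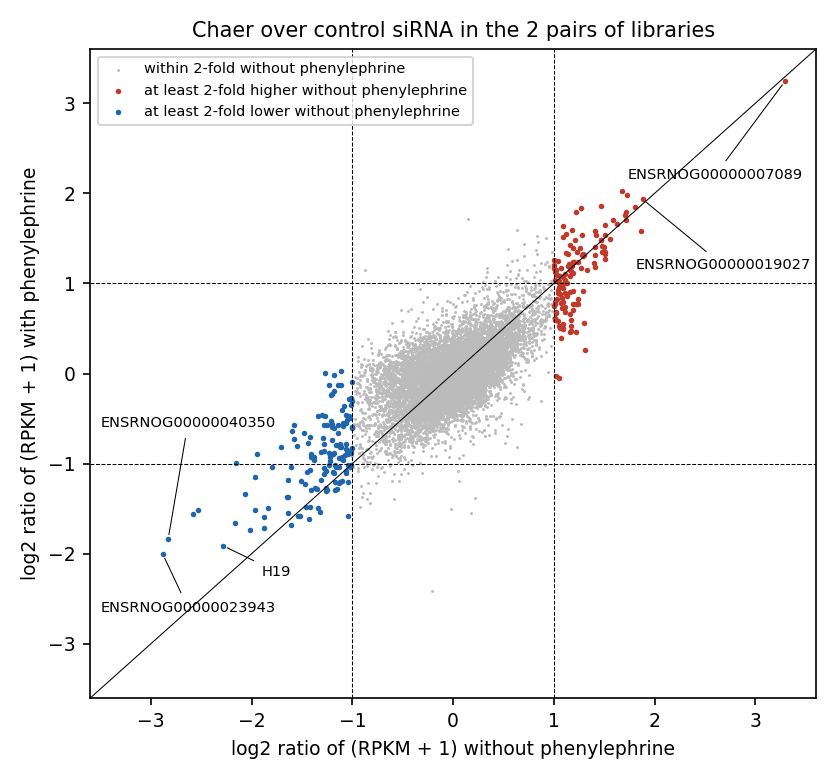
Log2 ratios of (RPKM + 1), Chaer over control siRNA, of 12261 features without (horizontal) and with phenylephrine (vertical); red and blue points are the 125 and 139 features past 2-fold without phenylephrine, dashed lines mark 2-fold and the solid line equal ratios. Of the red points, 78 lie above the upper dashed line, and of the blue points 61 lie below the lower one.

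Over the 5 groups by level, the 2 sets of ratios were related more closely in the higher groups. Pearson's r across features went over the 5 groups by mean RPKM from 0.55 in the lowest (n = 2453) to 0.77 in the highest (n = 2452), and Spearman's rho from 0.47 to 0.67. Among the 49 features at 1000 RPKM or more, r was 0.66 and rho 0.65, below the 0.80 and 0.72 of the 656 features between 100 and 1000 RPKM. The median of the smaller read count in the resting libraries was 133 in the lowest and 3937 in the highest group, so counting error differed greatly between them. Features within a group come from the same 4 libraries and are not independent replicates.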

How the data were processed

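RNA was sequenced in 4 libraries, and the 2 libraries without phenylephrine were compared. Alignment used TopHat2 and the build rn5, per the submitters' processing notes. The counter, its annotation and strand setting and any filter were not given in the sources used here. The deposited tables hold whole-number counts and RPKM values, per the file headers. Dividing the deposited counts by RPKM gave whole gene lengths and read totals of 36989888 (control siRNA) and 40394068 (Chaer siRNA), and 4.29% and 4.02% of those reads were not in listed features.

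Groups came from the sample titles, since the protocol text of every sample mentions phenylephrine. Features were kept when their RPKM averaged 1 or more over both libraries, and log2 ratios used a pseudocount of 1 RPKM. Intervals at 95% were exact binomial for ratios and exact Poisson for levels. Without molecular identifiers, reads are not independent molecules. With 1 library per group no test was possible. The script for ratios and intervals was tested on simulated data. Other scalings came from edgeR 4.0.16 (TMM) and DESeq2 1.42.0 (median ratio), and the remaining steps used Python 3.11.15 with scipy 1.17.1. The plan named H19 and, for lack of symbols, the 2 highest and 2 lowest ratios; the reference table (GRCr8) paired 0 identifiers with a symbol, so the 31 gene lists written could not be applied. Members, lists and rules were chosen with earlier results of these data known, and the groups by level and the shares of reads were chosen after the values were seen.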

Additional observations from a re-analysis of the deposited data

How the results depend on the processing

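Counts past 2-fold depended on the pseudocount. With 0.1 RPKM, 191 features were higher and 277 lower with Chaer siRNA, and 106 and 131 were so in both pairs of libraries. With 5 RPKM, 55 were higher and 37 lower, so the larger direction turned, and 38 and 18 were so in both pairs. With a mean RPKM of at least 5, 86 were lower, against 111 higher. With the 1.5-fold rule 605 were higher and 766 lower, and 316 and 264 in both pairs. With the 3-fold rule 11 were higher and 24 lower, and 10 and 8 in both pairs. Other filters, TMM and median-ratio scaling and the added counting interval left these counts within 1.5 times, with 112 to 126 higher and 138 to 146 lower features; the scaling without the 20 most abundant features did so too, at 93 and 173. The 5 named features kept their direction in all 35 values under other pseudocounts, filters and scalings, with H19 between -2.45 and -1.76. Their ranks depended on the pseudocount. With 0.1 RPKM, H19 was 13th lowest, ENSRNOG00000023943 4th and ENSRNOG00000040350 6th lowest. With 5 RPKM they were 6th, 2nd and 1st lowest. ENSRNOG00000007089 stayed highest, and ENSRNOG00000019027 was 3rd and 4th highest. The medians of the lowest and highest of the 5 groups by level, in settings added after seeing the data, lay between -0.16 and -0.04 and between 0.04 and 0.12. Medians of gene lists were not run. No paired analysis was run, since each combination of siRNA and phenylephrine had 1 library. A model with terms for both siRNA and phenylephrine was not run here. No library could be left out. At these depths 3 reads of a 1 kb gene are 0.0811 RPKM with control and 0.0743 RPKM with Chaer siRNA.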

Other observations

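The shortest gene models had a wider spread of ratios. Of 161 features under 200 bp, the log2 ratios of (RPKM + 1) between Chaer and control siRNA had an SD of 0.55, against 0.38 for the 5951 features of 2000 bp or more. In this class 4 features were at least 2-fold higher and 5 lower with Chaer siRNA, 5.59% of it against 1.90% of the long features. The next class, 578 features of 200 to 499 bp, did not share this, with an SD of 0.36 and 1.56% past 2-fold. The median of the smaller read count was 52 in the short and 1211 in the long class. Whether counting error accounts for the wider spread was not tested.

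Over 5 equal groups by length, the median log2 ratio went from 0.05 in the shortest models (46 to 1082 bp) to -0.05 in the longest (3406 to 27611 bp). With phenylephrine the order was the other way, from -0.07 in the shortest to -0.01 in the longest. The slope with length was thus opposite in the 2 pairs of libraries, with 2454 features in the shortest and 2452 in the longest group.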
